A study of Rattus norvegicus with 40 samples.

Results

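Levels of 6 lysosomal genes were followed in microglia, the macrophages that live in brain and spinal cord tissue, of adult rats whose mothers had breathed either intermittently low or constant oxygen during pregnancy. The genes were the lysosomal proteases Ctsb, Ctsd and Ctsl and the lysosomal membrane proteins Lamp1, Lamp2 and Cd68. They were chosen by name, as genes of the lysosome, with earlier results of these data known. They make up 6 of the 32883 Ensembl rat gene IDs in the count table. The table gives IDs only, so the names come with the list: Ctsb is ENSRNOG00000010331, Ctsd is ENSRNOG00000020206, Ctsl is ENSRNOG00000018566, Lamp1 is ENSRNOG00000019629, Lamp2 is ENSRNOG00000000164 and Cd68 is ENSRNOG00000037563. All 6 were present and passed the filter on low counts in every fit.

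Sprague Dawley dams were exposed to intermittent hypoxia, alternating 10.5% and 21% oxygen, or to intermittent normoxia, 21% oxygen throughout, between gestational days 10 and 21, with 15 cycles per hour during 8 hours of each day. Their offspring were not exposed after birth and were studied at 8 weeks of age, and each of the 5 litters per exposure gave 1 male and 1 female. Microglia were taken from the medulla, the lowest part of the brainstem, and from segments C3 to C6 of the cervical spinal cord with magnetic beads against CD11b, and total RNA was sequenced. The 8 groups were female hypoxia cord, female normoxia cord, male hypoxia cord, male normoxia cord, female hypoxia medulla, female normoxia medulla, male hypoxia medulla and male normoxia medulla, with 5 libraries each. The 40 libraries came from 20 animals, each of which gave a cord and a medulla library.

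Lysosomes are the acidic compartments in which cells break down material taken up from outside or delivered by autophagy. In microglia they digest engulfed debris, synapses and myelin. Cathepsins are the main lysosomal proteases, and some also act outside the cell or at near-neutral pH. LAMP proteins, with heavily glycosylated inner domains, make up much of the lysosomal membrane protein. CD68 is a related membrane protein of phagocytes that is widely used as a stain for phagocytic microglia. CD11b is carried by other myeloid cells too, and the isolation does not separate these from microglia. The lists of marker genes for microglia and other cells could not be matched to the IDs, so the labelled cell type was not checked. Cd68 had reads in 40 of 40 libraries, from 39 to 1838. As a gene of phagocytes it cannot tell microglia from other myeloid cells.

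Total counts per library ranged from 6061346 to 24039411 with a median of 13260257. The 6 genes together took a median of 0.879% of a library's counts, with a range of 0.651% to 1.095%. Replicate 3 of the female hypoxia medulla stood apart. It was the shallowest library, 13379 IDs had a read in it against 15094 to 18339 in the other 39 libraries, and its log2 levels correlated across genes with the mean of the rest of its group at r = 0.882 against 0.943 to 0.988 in the others. Depth also differed between groups, at 17800000 ± 2820000 counts in the female hypoxia cord and 10500000 ± 1920000 in the female normoxia cord (SD, n = 5 each). Levels are given as counts of the gene per 1000000 counts of the library (CPM). Gene length was not available, so levels are compared between groups and not between genes. Fold changes come from edgeR's quasi-likelihood test, which rescales each library with trimmed-mean (TMM) factors, and a difference was called at a Benjamini-Hochberg adjusted p under 0.05 over all genes tested. In bulk RNA, a change in the number of expressing cells and a change in the RNA per cell cannot be told apart.

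Promoter windows are shown for 4 of the genes because their levels moved together (Ctsl and Lamp2) or, for Lamp1 and Ctsd, because their human counterparts are known targets of TFEB, a factor that activates lysosomal genes through an element with the core CACGTG. Each window holds the 250 bases before the annotated start, 5′ to 3′ on the gene's own strand, with every CACGTG in capitals. Sequences are those of RefSeq on build GRCr8. The windows are chr17:769854-770103 on the plus strand for Ctsl, chrX:122087674-122087923 on the minus strand for Lamp2, chr16:83075064-83075313 on the minus strand for Lamp1 and chr1:206968822-206969071 on the minus strand for Ctsd. RefSeq windows were found for 5 of the 6 genes, all but Ctsb.
Ctsl: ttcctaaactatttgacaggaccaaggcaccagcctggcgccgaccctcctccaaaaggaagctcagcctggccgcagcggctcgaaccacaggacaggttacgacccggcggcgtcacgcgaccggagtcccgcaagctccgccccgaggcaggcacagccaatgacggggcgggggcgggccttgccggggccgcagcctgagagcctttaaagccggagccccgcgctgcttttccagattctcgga
Lamp2: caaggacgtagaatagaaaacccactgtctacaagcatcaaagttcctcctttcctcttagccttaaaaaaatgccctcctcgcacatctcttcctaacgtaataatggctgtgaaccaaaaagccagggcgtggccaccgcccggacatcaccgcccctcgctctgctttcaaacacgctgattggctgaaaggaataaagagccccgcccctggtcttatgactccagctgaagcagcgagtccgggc
Lamp1: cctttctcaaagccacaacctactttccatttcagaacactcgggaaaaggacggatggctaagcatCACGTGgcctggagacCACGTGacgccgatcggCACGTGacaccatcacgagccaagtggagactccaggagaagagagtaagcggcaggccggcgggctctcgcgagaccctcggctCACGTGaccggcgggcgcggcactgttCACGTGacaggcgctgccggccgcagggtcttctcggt
Ctsd: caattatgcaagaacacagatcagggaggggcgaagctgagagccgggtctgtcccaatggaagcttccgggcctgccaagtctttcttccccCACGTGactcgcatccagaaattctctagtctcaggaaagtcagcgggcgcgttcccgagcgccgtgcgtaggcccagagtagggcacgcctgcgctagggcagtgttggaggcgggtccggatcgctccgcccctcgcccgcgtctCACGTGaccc

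The Lamp1 window held 5 CACGTG hexamers, whose first bases lie 183, 167, 150, 65 and 38 bases before the start. The Ctsd window held 2, at 157 and 10 bases before the start. The hexamer is its own reverse complement, so a match counts for both strands. Of 33469 rat promoter windows of this length, 5.59% held CACGTG at least once, 0.43% held it 2 or more times, and 1 window held 5. The longer palindrome TCACGTGA, which contains the hexamer, occurred in 0.657% of windows, with 2 copies in Lamp1 and 1 in Ctsd. The windows of Ctsl, Lamp2 and Cd68 held no CACGTG, which says only that these letters are not in these windows.

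Ctsb, a cysteine protease that can trim peptides from their ends as well as cut within them, had its highest mean in the male normoxia cord, at 3814 ± 441 CPM (SD, n = 5 in this and all following group means), and its lowest in the female hypoxia cord, at 2809 ± 322 CPM. The other means were 2993 ± 239 in the female normoxia cord, 3610 ± 522 in the male hypoxia cord, 3149 ± 1106 in the female hypoxia medulla, 3476 ± 308 in the female normoxia medulla, 3556 ± 205 in the male hypoxia medulla and 3292 ± 374 CPM in the male normoxia medulla. The widest spread was that of the female hypoxia medulla, whose 5 libraries lay between 1818 and 4437 CPM.

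Ctsd, the lysosomal aspartic protease, was at 2191 ± 340 CPM in the female hypoxia cord, 1908 ± 312 in the female normoxia cord, 2462 ± 423 in the male hypoxia cord and 2697 ± 360 CPM in the male normoxia cord. In the medulla it was at 1539 ± 471 CPM in hypoxia females, 1761 ± 188 in normoxia females, 1805 ± 238 in hypoxia males and 1801 ± 152 CPM in normoxia males. The 4 cord means all lay above the 4 medulla means.

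Ctsl, a cysteine endopeptidase that also processes the invariant chain of MHC class II in some cells, was at 1079 ± 255 CPM in the female hypoxia cord, 690 ± 123 in the female normoxia cord, 762 ± 116 in the male hypoxia cord and 776 ± 98.2 CPM in the male normoxia cord. In the medulla it was at 641 ± 154 CPM in hypoxia females, 962 ± 177 in normoxia females, 990 ± 224 in hypoxia males and 996 ± 162 CPM in normoxia males. The highest and the lowest mean of the 8 were thus those of the cord and of the medulla of the same animals, the hypoxia females.

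Lamp1, a major glycoprotein of the lysosomal membrane and a common marker of lysosomes, was at 1084 ± 139 CPM in the female hypoxia cord, 1197 ± 72 in the female normoxia cord, 1384 ± 191 in the male hypoxia cord and 1550 ± 227 CPM in the male normoxia cord. The female hypoxia medulla averaged 1803 ± 926 CPM, and 1397 ± 219 CPM over the 4 libraries left without replicate 3. The other medulla means were close together, at 1371 ± 135 in normoxia females, 1367 ± 131 in hypoxia males and 1352 ± 103 CPM in normoxia males.

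Lamp2, a paralog of Lamp1 with a splice form that serves as the receptor of chaperone-mediated autophagy, was at 1460 ± 447 CPM in the female hypoxia cord, 1059 ± 154 in the female normoxia cord, 1137 ± 237 in the male hypoxia cord and 1172 ± 324 CPM in the male normoxia cord. In the medulla it was at 1062 ± 145 CPM in hypoxia females, 1368 ± 221 in normoxia females, 1244 ± 227 in hypoxia males and 1244 ± 203 CPM in normoxia males. The gene counts do not separate its splice forms.

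Cd68 was at 43.8 ± 10.7 CPM in the female hypoxia cord, 43.3 ± 6.55 in the female normoxia cord, 42.3 ± 7.68 in the male hypoxia cord and 48.8 ± 5.51 CPM in the male normoxia cord. In the medulla it was at 43.7 ± 28.6 CPM in hypoxia females, 63.3 ± 11.8 in normoxia females, 67.2 ± 12.7 in hypoxia males and 62.9 ± 10.7 CPM in normoxia males. Its lowest value was 6.43 CPM, 39 reads, in replicate 3 of the female hypoxia medulla, and the 4 libraries left without it averaged 53.1 ± 22.5 CPM. For each of the 6 genes, all 7 pairs of groups that neighbour each other in the order of the means overlapped in range. Overlap of ranges was looked at for the 6 genes and was not counted over all genes.

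**Figure D1:**
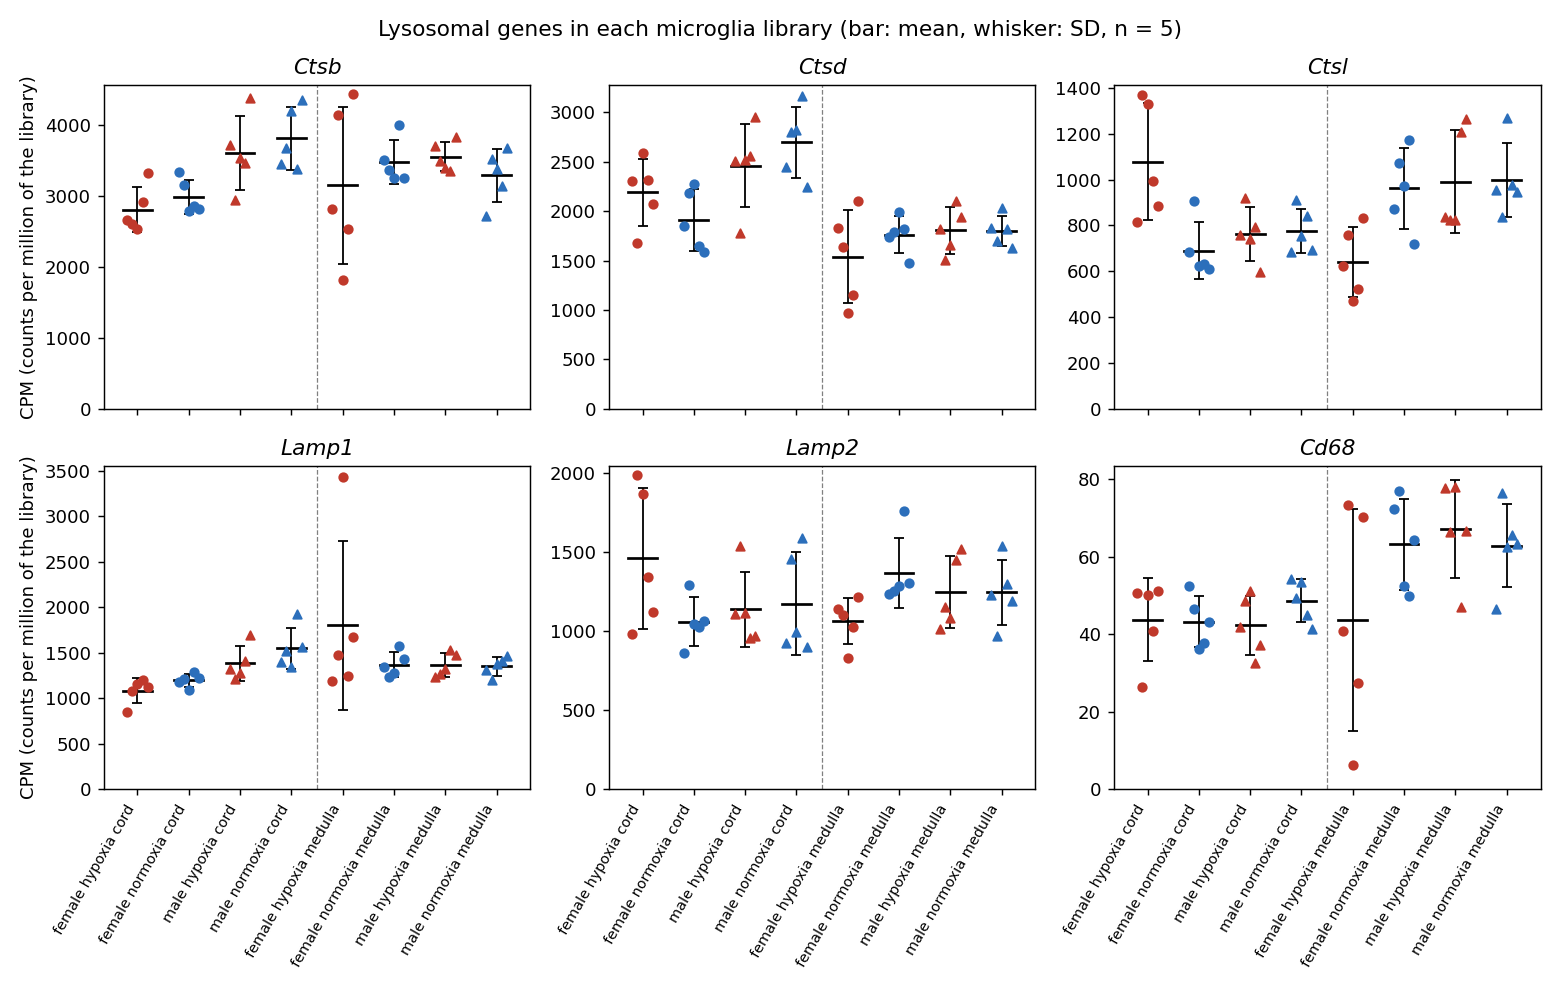
Level of each gene in each library, in CPM on a linear axis from 0, with circles for females, triangles for males, red for hypoxia and blue for normoxia; bars are group means and whiskers 1 SD (n = 5). Ctsl and Lamp2 reach 1368 and 1987 CPM in the female hypoxia cord, and Lamp1 has a single library at 3424 CPM in the female hypoxia medulla.

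The first question was what the gestational exposure did to these genes in the cord of females. Ctsl and Lamp2 rose in the hypoxia females, and the other 4 genes did not pass the test. Ctsl had 816, 1368, 1331, 994 and 885 CPM in the female hypoxia cord, against 684, 905, 623, 631 and 609 CPM in the female normoxia cord. Replicates 2, 3 and 4 of the hypoxia females were above all 5 normoxia females, and the ranges overlapped. The log2 fold change was 0.81 ± 0.17 (SE), or 1.75-fold, with an edgeR adjusted p of 0.00123.

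Lamp2 had 983, 1987, 1867, 1341 and 1122 CPM in the female hypoxia cord, against 864, 1294, 1048, 1024 and 1066 CPM in the female normoxia cord. The same replicates 2, 3 and 4 lay above all normoxia females, and replicate 1 was the lowest of the hypoxia females for both genes. The log2 fold change was 0.63 ± 0.22 (SE), or 1.55-fold, with an edgeR adjusted p of 0.03. Replicates 2 and 3 carried much of it: without both, Lamp2 was at 0.21 with an adjusted p of 0.507, while Ctsl was at 0.47 with an adjusted p of 0.0335. Lamp2 also lost its call when replicate 2 (adjusted p 0.113) or replicate 3 (0.0875) of the hypoxia females, or replicate 1 (0.0644), 3 (0.0545), 4 (0.0527) or 5 (0.0509) of the normoxia females, was left out alone, and in limma voom (0.39, adjusted p 0.109). These replicates 2 and 3 were also the deepest of the female hypoxia cord, at 19922079 and 20650051 counts, and the part of depth in the result was not tested.

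Ctsd had 2306, 1679, 2587, 2312 and 2070 CPM in the female hypoxia cord, against 1852, 2184, 2277, 1644 and 1586 CPM in the female normoxia cord. Its log2 fold change was 0.35 ± 0.14 (SE) with an edgeR adjusted p of 0.057, and the adjusted p was 0.0427 in DESeq2 and 0.0401 in limma voom. Leaving out replicate 2 of the hypoxia females (adjusted p 0.0385), or replicate 2 (0.0461) or 3 (0.0454) of the normoxia females, also gave Ctsd a call. It was at 0.20 with an adjusted p of 0.299 on library totals, at 0.27 with 0.156 without replicate 3 of the hypoxia females, and at 0.29 with 0.153 without replicate 5 of the normoxia females. Ctsb was at 0.06 (95% interval -0.17 to 0.28), Lamp1 at 0.01 (-0.24 to 0.26) and Cd68 at 0.16 (-0.16 to 0.47). The same counts were also set as ratios within libraries, which is not a separate test. The ratio of Lamp2 to Lamp1 counts was 1.159, 1.831, 1.608, 1.115 and 0.998 in the female hypoxia cord, against 0.733, 1.064, 0.963, 0.797 and 0.875 in the female normoxia cord. Such a ratio needs no scaling between libraries, and 4 of 5 hypoxia females lay above all normoxia females. The ratio of Ctsl to Ctsb counts was 0.306, 0.526, 0.526, 0.34 and 0.267 in the female hypoxia cord, against 0.205, 0.287, 0.223, 0.22 and 0.216 in the female normoxia cord, and here too 4 of 5 hypoxia females were above all normoxia females. Lamp1 and Ctsb, the divisors, had lower mean CPM in the hypoxia females (1084 against 1197, and 2809 against 2993). The ratio of Ctsl to Ctsd counts had closer medians, 0.43 in hypoxia and 0.384 in normoxia, with ranges of 0.354 to 0.815 and 0.274 to 0.414. Ratios of other pairs of genes over the whole table were not examined.

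The 2 of 6 genes called stand beside 32.8% of the 13593 genes tested, 18.2% called as higher, in the same comparison. The median log2 fold change was 0.25 over the 6 genes and -0.01 over all genes. Without TMM factors the median of all genes moved to -0.16, and Lamp2 was then at 0.46 with an adjusted p of 0.0751.

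In the male cord none of the 6 genes passed the test, in edgeR, DESeq2 or limma voom, beside 0% of 13593 genes in edgeR. At an unadjusted p under 0.05 in edgeR there were 0 of the 6 genes, beside 841 of all 13593. Ctsl had 760, 921, 739, 794 and 596 CPM in the male hypoxia cord, against 683, 911, 752, 839 and 693 CPM in the male normoxia cord. These values interleave, and the log2 fold change was -0.04 (95% interval -0.39 to 0.31). Lamp2 had 1109, 1538, 1116, 955 and 967 CPM in the male hypoxia cord, against 923, 1456, 993, 1588 and 901 CPM in the male normoxia cord, a log2 fold change of -0.06 (-0.51 to 0.39). The other 4 genes were between -0.22 and -0.09.

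The difference between the sexes in the response of the cord was tested as an interaction. Ctsl passed, at 0.85 ± 0.24 (SE) on the log2 scale with an edgeR adjusted p of 0.0146, where a positive value means a larger hypoxia effect in females. It is 1 gene of 6, beside 23.2% of all genes tested, 13.2% with a positive difference. Lamp2 was at 0.69 with an adjusted p of 0.103 and Ctsd at 0.50 with 0.0686. Lamp2 gained a call without replicate 1 of the female hypoxia cord (adjusted p 0.0445) or replicate 2 of the male hypoxia cord (0.0487), and Ctsd without replicate 5 of the male hypoxia cord (0.0433) or in DESeq2 (0.049). Without replicates 2 and 3 of the female hypoxia cord, the Ctsl interaction was at 0.52 with an adjusted p of 0.0869, and that of Lamp2 at 0.28 with 0.511. In limma voom the Lamp2 interaction was at 0.40 with an adjusted p of 0.27.

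In the female medulla none of the 6 genes was called, and Ctsl and Lamp2 had the lowest unadjusted p-values. Ctsl had 622, 759, 468, 524 and 833 CPM in the female hypoxia medulla, against 873, 1072, 974, 1174 and 717 CPM in the female normoxia medulla. The ranges overlapped, and 3 of 5 hypoxia females lay below all normoxia females. The log2 fold change was -0.59 ± 0.19 (SE), with an unadjusted p of 0.00709 and an edgeR adjusted p of 0.246. Lamp2 had 1137, 1099, 832, 1026 and 1214 CPM in the female hypoxia medulla, against 1235, 1254, 1287, 1760 and 1306 CPM in the female normoxia medulla. These ranges did not overlap, and how many of all genes separate in this way was not counted. The log2 fold change was -0.37 ± 0.16 (SE) with an adjusted p of 0.287. The 0 of 6 genes called (also 0 in DESeq2 and in limma voom) stand beside 0% of 14151 genes called in edgeR. At an unadjusted p under 0.05 in edgeR there were 2 of the 6 genes, beside 2180 of all 14151. Lamp1 at 0.47 and Cd68 at -0.55 turned on replicate 3 of the hypoxia females: without it, Lamp1 was at -0.01 and Cd68 at -0.27, while Ctsl was at -0.53 and Lamp2 at -0.34.

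In the male medulla 0 of 6 genes were called by edgeR, DESeq2 or limma voom, beside 0% of 14151 genes in edgeR. At an unadjusted p under 0.05 in edgeR there were 0 of the 6 genes, beside 122 of all 14151. All 6 log2 fold changes lay between 0.02 and 0.13. Ctsl was at 0.02 (95% interval -0.39 to 0.42) and Lamp2 at 0.03 (-0.30 to 0.35). The interaction of sex and exposure in the medulla called 0 of 6 genes by edgeR, DESeq2 or limma voom, beside 0% of 14151 genes in edgeR. Ctsl had its unadjusted p under 0.05, at -0.60 (-1.18 to -0.03) with an adjusted p of 0.785, and the other 5 did not. Over all genes, 879 of 14151 had an unadjusted p under 0.05 in edgeR.

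**Figure D2:**
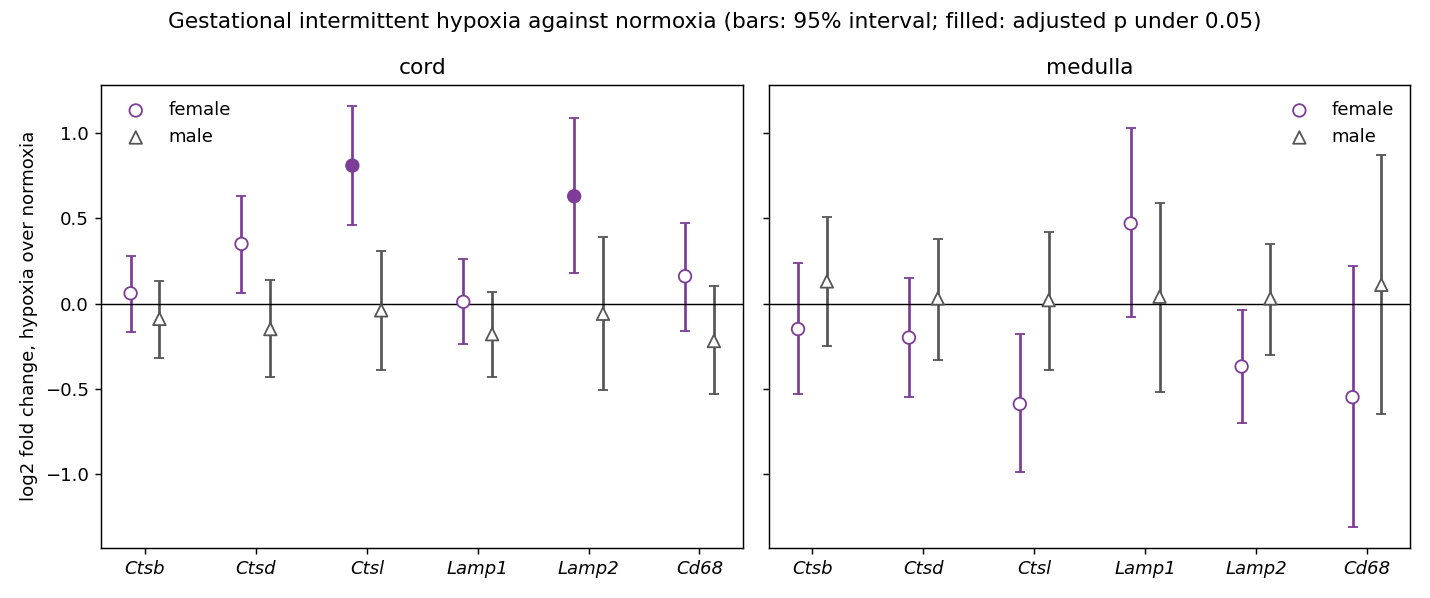
Log2 fold change of each gene, hypoxia over normoxia, in the cord (left) and the medulla (right); circles are females, triangles males, bars 95% intervals from edgeR, and filled symbols have an adjusted p under 0.05. Ctsl (0.81) and Lamp2 (0.63) in the female cord are the filled symbols, and both genes lie below 0 in the female medulla, at -0.59 and -0.37, without passing the test.

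The difference between regions in the hypoxia effect was tested in 1 fit of all 40 libraries. This fit had no term for the animal, so it treated the 2 libraries of an animal as independent. Ctsl and Lamp2 passed. The hypoxia effect in the cord minus that in the medulla was 1.40 ± 0.26 (SE) on the log2 scale for Ctsl, with an edgeR adjusted p of 0.00124, and 1.01 ± 0.27 (SE) for Lamp2, with an adjusted p of 0.00957. These 2 of 6 genes stand beside 20.8% of the 14832 genes tested, 11.2% with a positive difference. Ctsd was at 0.56 with an adjusted p of 0.0646, and at 0.60 with an adjusted p of 0.0461 in the fit with a block for each animal. It also passed without replicate 5 of the female hypoxia medulla (adjusted p 0.00949) or of the female normoxia medulla (0.0418). Lamp2 lost its call in limma voom (0.69, adjusted p 0.066) and without replicates 2 and 3 of the female hypoxia cord (0.61, adjusted p 0.129), where Ctsl was at 1.09 with an adjusted p of 0.0229. In males, 0 of 6 genes passed this interaction by edgeR, DESeq2 or limma voom, beside 0% of 14832 genes called in edgeR. At an unadjusted p under 0.05 in edgeR there were 0 of the 6 genes, beside 279 of all 14832. The values of the 6 genes lay between -0.31 and -0.04.

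The second question was how the regions themselves differed, within each sex and exposure. The tests come from the same fit without a term for the animal, except where a block for each animal is named. In hypoxia females, Ctsd, Ctsl and Lamp2 were higher and Lamp1 was lower in the cord than in the medulla. Ctsl was higher in the cord in 5 of 5 animals, with cord over medulla ratios of CPM of 1.311, 1.802, 2.845, 1.898 and 1.063. Its log2 fold change was 0.88 ± 0.19 (SE), with an edgeR adjusted p of 0.00123. Ctsd was at 0.63 ± 0.16 (adjusted p 0.00371), with ratios of 1.258, 1.023, 2.658, 2.013 and 0.985. The highest ratio for both genes was that of replicate 3, whose medulla library is the shallow one. Without that library Ctsl was at 0.83 (adjusted p 0.00376) and Ctsd at 0.54 (0.014).

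Lamp2 was at 0.60 ± 0.19 (SE) with an edgeR adjusted p of 0.0213, and lost its call with a block for each animal (0.53, adjusted p 0.0653), in limma voom (0.34, 0.273), and without replicate 2 (0.42, 0.117) or 3 (0.50, 0.0771) of the cord or replicate 4 of the medulla (0.53, 0.062). Lamp1 was at -0.69 ± 0.21 with an adjusted p of 0.014. The call rested on replicate 3 of the medulla, at 3424 CPM, where the other 4 libraries lay between 1194 and 1669 CPM: without it Lamp1 was at -0.20 with an adjusted p of 0.266. Its CPM was lower in the cord in 5 of 5 animals, with cord over medulla ratios of 0.71, 0.734, 0.339, 0.964 and 0.673. The 4 of 6 genes called, 3 higher and 1 lower in the cord, stand beside 26.2% of all genes, 12.7% called as higher and 13.5% as lower. Without replicates 2 and 3 of the cord, Ctsl was at 0.56 (adjusted p 0.0678), Lamp1 at -0.76 (0.0561) and Lamp2 at 0.20 (0.552), and Ctsd kept its call. When the fit held the 10 libraries compared and no others, 0 of the 6 genes were called, with Ctsl at 0.86 (adjusted p 0.108) and Ctsd at 0.62 (0.16).

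In normoxia females the order of the regions was the other way for Ctsl, which was lower in the cord in 5 of 5 animals. The ratios of cord over medulla were 0.783, 0.844, 0.64, 0.538 and 0.849, and all lay below those of the hypoxia females. The log2 fold change was -0.52 ± 0.19 (SE) with an edgeR adjusted p of 0.081, which did not pass the test. It did pass in limma voom (adjusted p 0.0185), in a fit of the 10 libraries compared (0.0457) and without replicate 5 of the medulla (0.0356). None of the 6 genes was called by edgeR or DESeq2, and 2 were called by limma voom (Ctsl and Cd68), beside 5.87% of all genes in edgeR. At an unadjusted p under 0.05 in edgeR there were 3 of the 6 genes, beside 3588 of all 14832. Ctsb, Lamp1 and Cd68 were also lower in the cord in 5 of 5 normoxia females. Their unadjusted p-values in edgeR were 0.0936, 0.258 and 0.0471. Lamp1 was lower in the cord in 5 of 5 hypoxia females too, and Cd68 in 5 of 5 hypoxia males. Such counts of animals rest on CPM without TMM and were not made over all genes.

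In normoxia males Ctsd was the gene that passed, beside 6.55% of all genes, 2.37% called as higher in the cord. It had 2443, 2804, 2823, 3169 and 2246 CPM in the cord, against 1825, 1702, 2030, 1817 and 1629 CPM in the medulla. The ranges did not overlap, which was not counted over all genes, and the cord was higher in 5 of 5 animals. The log2 fold change was 0.61 ± 0.15 (SE), or 1.53-fold, with an edgeR adjusted p of 0.0159, and of 0.0544 without replicate 4 of the cord. In hypoxia males Ctsd had 2508, 1780, 2516, 2558 and 2950 CPM in the cord, against 1824, 1501, 1653, 2106 and 1944 CPM in the medulla. The cord was again higher in 5 of 5 animals, at a log2 fold change of 0.45 ± 0.15 with an edgeR adjusted p of 0.0624, and of 0.0312 in DESeq2. In that comparison 0 of 6 genes were called by edgeR, 1 by DESeq2 (Ctsd) and 2 by limma voom (Ctsd and Cd68), beside 7.76% of all genes in edgeR. At an unadjusted p under 0.05 in edgeR there were 2 of the 6 genes (Ctsd and Cd68), beside 3214 of all 14832. With the shallow library out of the fit Ctsd (adjusted p 0.0321) and Cd68 (0.0323) passed, and Ctsd passed without replicate 2 of the cord (0.027).

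Over all 20 animals, Ctsd was higher in the cord in 18, with a median cord over medulla ratio of 1.298 and a range of 0.905 to 2.658. Cd68 was higher in the cord in 4 of 20, with a median ratio of 0.6925. Of these 4, 3 were hypoxia females, whose ratios were 1.236, 0.359, 7.79, 1.486 and 0.729, against 0.604 to 0.757 in the normoxia females. The ratio of 7.79 belongs to the shallow medulla library. Ctsb was higher in the cord in 11, Lamp2 in 9, Ctsl in 7 and Lamp1 in 6 of 20 animals. For Ctsb these were 5 of 5 normoxia males, 4 of 5 hypoxia males, 2 of 5 hypoxia females and 0 of 5 normoxia females.

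**Figure D3:**
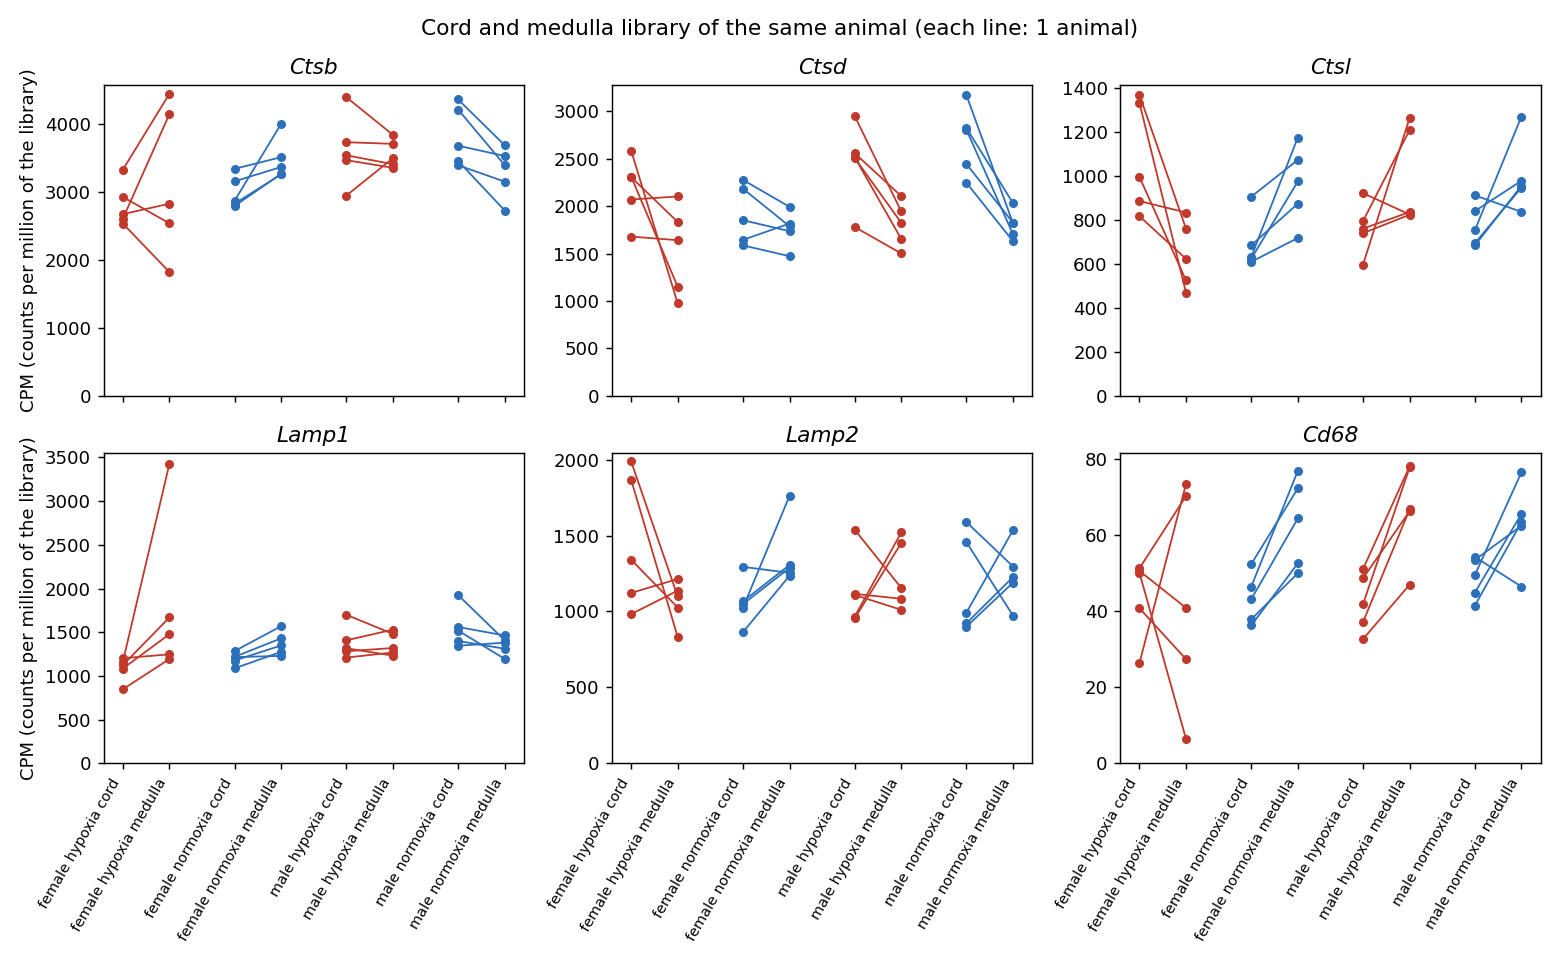
Level in the cord (left end) and the medulla (right end) of each animal, in CPM on a linear axis from 0; each line is 1 animal, red for hypoxia and blue for normoxia. The Ctsl lines fall toward the medulla in 5 of 5 hypoxia females and climb in 5 of 5 normoxia females, and the Ctsd lines fall in 18 of 20 animals.

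The third question was how females and males differed under the same exposure. In the normoxia cord, Ctsb, Ctsd and Lamp1 were lower in females than in males. Ctsd had 1852, 2184, 2277, 1644 and 1586 CPM in normoxia females, against 2443, 2804, 2823, 3169 and 2246 CPM in normoxia males, with a log2 fold change of -0.55 ± 0.14 (SE) and an edgeR adjusted p of 0.0241. Ctsb had 3335, 3151, 2789, 2866 and 2822 CPM in normoxia females, against 3450, 3675, 4205, 3387 and 4354 CPM in normoxia males. It did not overlap between the sexes, which was not counted over all genes. Its log2 fold change was -0.40 ± 0.11 (SE) with an edgeR adjusted p of 0.0332.

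Lamp1 had 1177, 1216, 1088, 1285 and 1219 CPM in the female normoxia cord, against 1400, 1519, 1347, 1925 and 1560 CPM in the male normoxia cord. The sexes did not overlap here either, again without a count over all genes. The log2 fold change was -0.43 ± 0.12 (SE) with an edgeR adjusted p of 0.0391. The 3 of 6 genes called stand beside 6.56% of all genes, 3.38% called as lower in females, and all 6 log2 fold changes were negative, with a median of -0.31 against 0 over all genes. The calls were close to the threshold. Leaving out replicate 2 or 4 of the normoxia males, or replicate 4 or 5 of the normoxia females, left 0 of them, without replicate 5 of the males or replicate 3 of the females Ctsd alone was left, and a fit of all 40 libraries called 0.

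In the hypoxia cord the sexes differed in Ctsl, which was higher in females, beside 19.6% of all genes called, 11.4% as higher in females. Females had 816, 1368, 1331, 994 and 885 CPM, against 760, 921, 739, 794 and 596 CPM in males, and 3 of 5 females lay above all males. The log2 fold change was 0.63 ± 0.17 (SE), or 1.55-fold, with an edgeR adjusted p of 0.0143. It lost its call without replicate 2 of the females (adjusted p 0.0551) and was at 0.30 with an adjusted p of 0.267 without replicates 2 and 3. Lamp1 had 848, 1085, 1161, 1203 and 1124 CPM in hypoxia females, against 1317, 1211, 1283, 1408 and 1700 CPM in hypoxia males, with no overlap, which was not counted over all genes. On the scale after TMM its log2 fold change was -0.23 (95% interval -0.49 to 0.02) with an adjusted p of 0.175, and on library totals it was called at -0.35 (adjusted p 0.0373). Lamp2 was at 0.49 (0.04 to 0.94) with an adjusted p of 0.113, and passed without replicate 1 of the females (0.0413) or replicate 2 of the males (0.0496). It was at 0.31 with an adjusted p of 0.349 without replicate 2 of the females, and at 0.08 with 0.862 without replicates 2 and 3 of the females. Ctsb was at -0.25 (-0.48 to -0.02) with an adjusted p of 0.109, and passed without replicate 2 of the males (-0.31, 0.0492) and on library totals (-0.36, 0.0326).

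In the medulla none of the 6 genes was called between the sexes by edgeR, DESeq2 or limma voom, beside 0.0777% of all genes in hypoxia and 0.0707% in normoxia. At an unadjusted p under 0.05 in edgeR, 0 of the 6 genes stood beside 587 of all 14151 in normoxia. In hypoxia 1 of the 6 genes stood beside 2027 of all 14151. The 1 gene in hypoxia was Ctsl, with 622, 759, 468, 524 and 833 CPM in hypoxia females against 835, 824, 823, 1208 and 1263 CPM in hypoxia males. Its log2 fold change was -0.62 ± 0.19 (SE), with an edgeR adjusted p of 0.294. In the normoxia medulla all 6 log2 fold changes between females and males lay between -0.02 and 0.17.

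How the genes varied together between animals was examined on deviations of log2 CPM from the group means, over the 20 libraries of a region. This removes differences between group means, but not between the spreads of groups. The permutations ran freely over all 20 libraries and took no account of the means removed, of groups or of shared litters. Their p-values are therefore approximate. Ctsl and Lamp2 were the pair most alike in both regions. In the cord their Pearson r was 0.87 (permutation p 1e-05, the smallest that 100000 permutations can give, adjusted over 15 pairs 0.00015), Spearman's rho was 0.81 (p 4e-05, adjusted 0.0006), and r was 0.83 without the 2 libraries farthest from the median of Ctsl. In the medulla r was 0.85 (p 1e-05, adjusted 0.00015), rho was 0.84 (p 1e-05, adjusted 0.00015), and r was 0.80 without the 2 farthest libraries. The cord and medulla libraries come from the same animals.

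Of the 14 other pairs, 0 passed in the cord, by Pearson's r or by Spearman's rho, and in the medulla 7 passed by Pearson's r, 4 of them also by Spearman's rho. Over all 15 pairs the median r was 0 in the cord and 0.41 in the medulla. The other medulla pairs that passed both tests were Ctsd with Ctsl (r 0.81, p 2e-05, adjusted 0.00015; rho 0.83, p 4e-05, adjusted 0.0003), Ctsb with Cd68 (r 0.77, p 0.00014, adjusted 0.0007; rho 0.56, p 0.0112, adjusted 0.0418), Ctsb with Ctsl (r 0.63, p 0.00266, adjusted 0.00798; rho 0.55, p 0.0141, adjusted 0.0422) and Ctsd with Lamp2 (r 0.58, p 0.00659, adjusted 0.0165; rho 0.66, p 0.00208, adjusted 0.0104). Without the 2 libraries farthest from the median of the first gene, these r were 0.75, 0.61, 0.49 and 0.54. The negative r of Lamp1 with Cd68 in the medulla, -0.65 (p 0.0185, adjusted 0.0396; rho -0.43, p 0.0589, adjusted 0.116), was -0.09 without the 2 farthest libraries and so rests on those samples. Without the shallow library 10 of 15 medulla pairs passed by Pearson's r, 8 of them also by rho. On library totals 8 of 15 passed by Pearson's r, 3 of them also by rho. There Ctsb with Cd68 and Ctsb with Ctsl did not pass by rho (permutation p adjusted 0.0512 each). Whether the difference between the cord and the medulla in these counts exceeds chance was not tested.

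**Figure D4:**
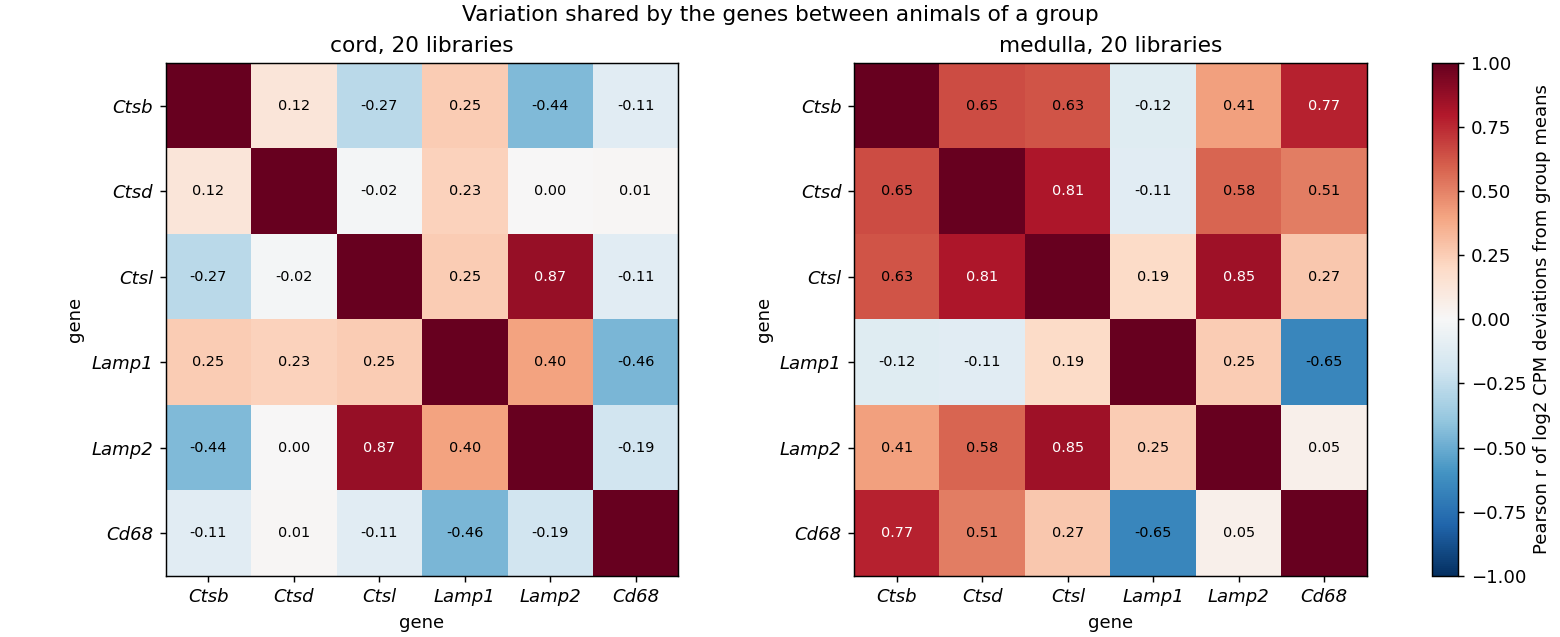
Pearson correlation of the deviations of log2 CPM from the group means between each pair of genes, over the 20 libraries of the cord (left) and of the medulla (right); colour and numbers give r. Ctsl with Lamp2 is the highest pair in both panels, at 0.87 and 0.85, and the median over 15 pairs is 0 in the cord and 0.41 in the medulla.

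The cord and the medulla of an animal were compared in the same way. Between the cord and the medulla library of the same 20 animals, with group means removed, r was 0.52 for Ctsb (permutation p 0.0176, adjusted over the 6 genes 0.105), with a rho of 0.60 (p 0.00607, adjusted 0.0364) and an r of 0.49 without the 2 farthest animals. On library totals the rho of Ctsb was 0.48 (permutation p adjusted 0.104), and r was 0.18 without the 2 farthest animals. Without the shallow library its rho was 0.57 (permutation p adjusted 0.0779), so the call by rho was lost under both. For the other 5 genes r lay between -0.31 and 0.38, and none passed by either measure. Ctsl was at r = -0.09 (p 0.711, adjusted 0.752; rho -0.16, p 0.492, adjusted 0.592) and Lamp2 at r = -0.31 (p 0.181, adjusted 0.363; rho -0.26, p 0.277, adjusted 0.553).

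The genes whose pattern was most like the mean of the 6, by Pearson's r of deviations from group means over 40 libraries and among 14826 genes, were ENSRNOG00000009325 at r = 0.89 and ENSRNOG00000012121 at r = 0.87. These values describe libraries that share animals, and no test was made. The files do not pair these IDs with names. For the same reason the wider lists of lysosomal proteases, hydrolases, membrane proteins, proton pump subunits and transcription factors were not analysed here.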

How the data were processed

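The deposited table holds raw counts of reads per gene, whole numbers, for 32883 Ensembl IDs in 40 columns. Labels tie every column to its library. The tools named, with no role or order, are HTSeq, edgeR and TopHat2 2.1, and the build is rn6, per the submitters' processing notes. Reads of overlapping or antisense genes may be shared, since annotation release, strand setting and filters were not given in the sources used here. No IDs could be matched to symbols (0 of 32883, and 0 of 47357 rows of the reference table carry an Ensembl ID), so the fixed lists of other lysosomal genes and of cell type markers were not used. The members and lists were chosen with earlier results of these data known.

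Comparisons used edgeR 4.0.16 (R 4.3.3): its quasi-likelihood F test, TMM factors, and filterByExpr by group at a minimum count of 10. Exposure, sex and their interaction were fitted among the 20 libraries of a region (13593 genes in the cord, 14151 in the medulla), region and its interaction with exposure among all 40 libraries (14832 genes). That gave 16 comparisons. The p-values were adjusted by Benjamini-Hochberg over all genes of a comparison, SEs are those implied by the F statistic, and 95% intervals use its degrees of freedom. CPM in the text is the count per 1000000 counts of the column, without TMM. Correlations used log2 CPM with a prior count of 2. The named genes were all 6 members, and the 2 IDs most like their mean.

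The 2 libraries of an animal are paired by the number in their labels. Their deviations from group means correlated at 0.07 to 0.42, positive in 20 of 20 animals, and 14 of 20 medulla libraries were most like their own animal's cord library within the group. Among all 20 cord libraries 6 of 20 were, and r was above 0.1 in 14 of 20 animals, so the pairing rests on the labels. Libraries of different groups that share only a replicate number come from different animals. Within a group the closest libraries still differed by a chi-square of 10.1 per degree of freedom, so none is a duplicate. The replicates are separate animals, and 1 male and 1 female came from each litter, which the fits do not model. Alternatives were a replicate block, fits without each library in turn, fits of other sets of libraries, DESeq2 1.42.0, voom with quality weights in limma 3.58.1, size factors by RLE, library totals, and no filter. Leaving out replicates 2 and 3 of the female hypoxia cord together was added after seeing the data.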

Additional observations from a re-analysis of the deposited data

Results flagged for a closer look

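In 4 of the 48 sets of 5 values, 1 library stood far from the other 4 by Dixon's criterion, which chance meets in about 1 of 20 sets. Ctsl was at 905 CPM in replicate 2 of the female normoxia cord, where the other 4 libraries lay between 609 and 684 CPM. Lamp1 was at 3424 CPM in replicate 3 of the female hypoxia medulla, the shallowest library. Lamp2 was at 1538 CPM in replicate 2 of the male hypoxia cord and at 1760 CPM in replicate 4 of the female normoxia medulla.

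In 3 cases an effect of the exposure differed between groups by a test of the difference itself. For Ctsl the hypoxia effect in the cord was larger in females than in males by 0.85 on the log2 scale, and in females it was larger in the cord than in the medulla by 1.40. For Lamp2 the hypoxia effect in females was larger in the cord than in the medulla by 1.01. Lamp2 did not pass the test of the sexes in the cord, at 0.69 with an edgeR adjusted p of 0.103.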

How the results depend on the processing

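Of 1986 single log2 fold changes under alternatives, 1900 kept their side of the threshold, 55 lost and 31 gained a call. Of the 1900, 70 that were called in neither fit changed sign, and 0 called values did. The 14 calls held in 230 of 285 alternatives. Ctsl between hypoxia and normoxia in the female cord held in all of its alternatives. The number of the 6 genes called moved as follows, and stayed within 1.5 times under the alternatives not named. For exposure in the female cord (2) it was 1 with library totals, 3 in DESeq2, 1 without the female hypoxia cord replicates 2 and 3 together, and 1 to 3 with single libraries left out. For sex in the hypoxia cord (1) it was 3 with library totals, 2 with the replicate block, 0 without both replicates, and 0 to 3 with single libraries left out. For sex in the normoxia cord (3) it was 1 with library totals, 1 without the filter, 0 in a fit of all 40 libraries, and 0 to 3 with single libraries left out. For sex by exposure in the cord (1) it was 2 in DESeq2, 2 with the replicate block, 0 without both replicates, and 1 to 2 with single libraries left out. For region in hypoxia females (4) it was 2 in limma voom, 0 in a fit of the groups compared, 3 with library totals, 3 with the block by animal, 1 without both replicates, and 3 to 4 with single libraries left out. For region in normoxia females (0) it was 2 in limma voom, 2 in a fit of the groups compared, and 0 to 1 with single libraries left out. For region by exposure in females (2) it was 1 in limma voom, 3 with the block by animal, 1 without both replicates, and 2 to 3 with single libraries left out. For region in hypoxia males (0) it was 1 in DESeq2, 2 in limma voom, 1 in a fit of the groups compared, 2 without the shallowest library, and 0 to 1 with single libraries left out. For region in normoxia males (1) it was 0 to 1 with single libraries left out. The cause of these moves was not tested.

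The labels do not say that a replicate number marks a litter. Between groups of a region the deviations of same-numbered libraries correlated at -0.45 to 0.72. Of 12 pairs of groups, 0 had every r above 0.1, and 19 of 60 libraries were most like their own number. Most of these pairs set hypoxia against normoxia, which share no litter, so the pooled figures cannot decide whether the numbers mark litters. The numbers were not taken to pair the libraries. As a hint from the data, 5 of 5 libraries were most like their own number between females and males of the hypoxia cord (r 0.10 to 0.23) and of the normoxia cord (r 0.06 to 0.35). Between the sexes in the medulla it was 1 of 5 in hypoxia (r -0.41 to 0.21) and 2 of 5 in normoxia (r up to 0.72). Pairing by litter was not tested. The replicate block added Lamp2 to sex in the hypoxia cord (adjusted p 0.0482) and to sex by exposure in the cord (0.0454). The block by animal took Lamp2 from region in hypoxia females (0.0653), added Ctsd to region by exposure in females (0.0461), and changed no other call. Cd68 had 39 to 1838 reads per library, where the other 5 genes had at least 2835, and the part of depth in its spread was not tested. A fit of only the groups compared adds nothing for sex by exposure and was not run there.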
